A study of Homo sapiens with 14 samples.

Results

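The metallothioneins described here are 8 human genes, MT1A, MT1E, MT1F, MT1G, MT1H, MT1M, MT1X and MT2A. They were taken by symbol from both deposited expression tables, which together list 26280 gene symbols, and all 8 are in each table. Messenger RNA was sequenced from 14 libraries in 7 groups of 2. The acute myeloid leukaemia line SIGM5 received DMSO, the solvent control, or 12.5 µM TETi76, which inhibits TET enzymes. The erythroleukaemia line K562 entered as 2 clones. The clone K01, TET2+/+ per the series text, received DMSO, 12.5 µM TETi76, 100 µM ascorbate, or both agents together, and the TET2-/- clone K18 received DMSO alone. Every group was harvested after 24 h. Each TET2 genotype was 1 clone, so genotype and clone cannot be told apart. The labels do not say whether replicates were separate cultures, so the p-values cover only the spread between these libraries, part or all of which may be technical. In bulk RNA, fewer cells making a transcript and less transcript per cell cannot be told apart.

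Metallothioneins are very small cytosolic proteins whose cysteine residues bind zinc and copper and can trap toxic metals such as cadmium. Free zinc activates the transcription factor MTF1, which binds metal response elements in metallothionein promoters and in that of the zinc exporter gene SLC30A1. Glucocorticoids, interferons and oxidative stress are also known inducers. TET enzymes, which oxidise methylcytosine in DNA, need iron and 2-oxoglutarate, and ascorbate is a cofactor that helps to keep their iron reduced.

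All 8 genes lie in 1 cluster on chromosome 16, in the order MT2A, MT1E, MT1M, MT1A, MT1F, MT1G, MT1H, MT1X, and only MT1G is on the minus strand. The coding sequences of 4 of them, from GENCODE release 29 (GRCh38), are shown because their mRNAs carry the results in the 2 lines. The cysteine codons TGC and TGT are in capitals.
MT2A coding sequence: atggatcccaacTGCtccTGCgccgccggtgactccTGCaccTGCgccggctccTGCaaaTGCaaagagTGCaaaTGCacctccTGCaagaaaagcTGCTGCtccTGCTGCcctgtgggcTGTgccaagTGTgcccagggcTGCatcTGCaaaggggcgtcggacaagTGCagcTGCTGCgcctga
MT1X coding sequence: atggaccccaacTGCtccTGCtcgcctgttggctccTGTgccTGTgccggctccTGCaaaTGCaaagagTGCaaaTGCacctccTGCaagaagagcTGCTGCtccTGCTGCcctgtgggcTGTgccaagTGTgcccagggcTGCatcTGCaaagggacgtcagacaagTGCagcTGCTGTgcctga
MT1G coding sequence: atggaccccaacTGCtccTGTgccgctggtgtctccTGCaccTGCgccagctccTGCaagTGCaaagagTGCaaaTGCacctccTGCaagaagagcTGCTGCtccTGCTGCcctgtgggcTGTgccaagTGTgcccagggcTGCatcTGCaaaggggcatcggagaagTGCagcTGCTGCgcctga
MT1H coding sequence: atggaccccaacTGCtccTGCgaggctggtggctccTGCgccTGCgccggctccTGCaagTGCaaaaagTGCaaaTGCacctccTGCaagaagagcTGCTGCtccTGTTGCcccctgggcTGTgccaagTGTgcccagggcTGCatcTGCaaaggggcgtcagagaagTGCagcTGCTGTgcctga
Each of the 8 coding sequences is 186 bases long and holds 20 cysteine codons among 61 amino acid codons, or 32.8%. Between any pair of members, from 88.7% (MT1F and MT1X) to 95.2% (MT1G and MT2A) of the coding bases were identical. Reads from such close relatives can be assigned to the wrong gene or discarded, and how the authors' counting handled them is not given in the sources used here. In GENCODE transcripts, windows of 50 bases shared exactly with another gene made up 3.27% of the MT1F windows, 4.24% for MT2A, 16.5% for MT1G and 43.6% for MT1X. With windows of 100 bases the share was 0% for MT2A and MT1G and 30.8% for MT1X, with the locus AC026461.1. MT1X had the highest shared fraction of the 8 members at both lengths.

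Promoters were available for 3 of the 8 members and are shown because they belong to MT2A, called in both lines, MT1H, with the largest fall in SIGM5, and MT1X, not called there. Each is the 250 bases before the gene's start on the plus strand, from RefSeq (GRCh38.p14), at chr16:56608334-56608583 for MT2A, chr16:56669564-56669813 for MT1H and chr16:56682220-56682469 for MT1X. Capitals mark matches on either strand to the cores of the metal response element, TGCACNC and TGCGCNC, none of which overlap.
MT2A promoter: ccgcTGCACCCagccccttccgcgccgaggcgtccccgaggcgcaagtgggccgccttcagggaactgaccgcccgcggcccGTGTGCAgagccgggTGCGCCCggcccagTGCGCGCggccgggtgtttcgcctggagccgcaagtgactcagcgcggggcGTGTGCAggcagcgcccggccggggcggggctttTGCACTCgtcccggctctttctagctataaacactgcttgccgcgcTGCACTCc
MT1H promoter: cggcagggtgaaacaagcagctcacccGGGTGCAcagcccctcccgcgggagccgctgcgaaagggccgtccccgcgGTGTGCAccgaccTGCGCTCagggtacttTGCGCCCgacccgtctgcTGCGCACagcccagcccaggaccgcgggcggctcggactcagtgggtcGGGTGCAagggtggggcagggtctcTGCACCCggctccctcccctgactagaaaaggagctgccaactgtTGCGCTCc
MT1X promoter: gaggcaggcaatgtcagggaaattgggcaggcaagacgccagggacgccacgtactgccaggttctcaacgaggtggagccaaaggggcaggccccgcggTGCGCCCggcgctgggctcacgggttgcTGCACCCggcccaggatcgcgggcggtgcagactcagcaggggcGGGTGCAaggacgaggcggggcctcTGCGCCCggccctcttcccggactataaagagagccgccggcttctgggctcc
MT2A held 7 matches, MT1H 8 and MT1X 4. Of 35114 promoter windows of the same length, 24.8% held at least 1 match and 0.37% at least 4. A match describes the letters and does not show binding.

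The lines carried the mRNAs of their labels. In SIGM5, 9 of 10 myelomonocytic markers reached 1 CPM (counts scaled for library size), and in K562 all 10 erythroid markers reached 1 FPKM (fragments scaled for gene length and library size). In SIGM5, 1 of 10 erythroid markers reached 1 CPM. K562 libraries also had 4 to 7 of 10 myelomonocytic markers at 1 FPKM. These summed to 73.3 to 108 FPKM, against 4471 to 10136 for the erythroid markers. Hepatocyte markers, a cell type rich in metallothioneins, summed to at most 5.21 CPM in SIGM5 and 1.44 FPKM in K562. SIGM5 libraries held 18893636 to 23639198 counts. The K562 table holds FPKM and prints no read totals, so its depth is unknown. Within SIGM5 the CPM of different members are not corrected for length and are compared only across libraries.

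In SIGM5 cells, TETi76 lowered 5 of the 6 metallothioneins that could be tested, MT1H, MT1G, MT2A, MT1F and MT1E, and the remaining member, MT1X, was not called. Over all 8 genes, metallothionein mRNA stood at 373 and 399 CPM in the DMSO libraries and at 243 and 239 CPM under TETi76. The groups did not overlap. The comparison asks what TET inhibition does to these mRNAs in a myeloid leukaemia line.

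MT1H had the largest fall of the 6. Its counts gave 28.5 and 31.9 CPM in DMSO and 10.6 and 10.1 CPM under TETi76. This is a log2 change of -1.54 (SE 0.14, adjusted p = 4.9e-07 by edgeR's quasi-likelihood test, n = 2 per group), or 2.92-fold lower. MT1G stood at 103 and 108 CPM in DMSO and at 52.8 and 54.6 under TETi76 (log2 -0.98, SE 0.11, edgeR adjusted p = 6.05e-06). For both genes the TETi76 libraries lay close together and well below either DMSO library; MT1G was 1.97-fold lower.

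MT2A, the main metallothionein of many human cells, read 59.96 and 65.5 CPM in DMSO and 37.3 and 36.9 CPM under TETi76 (log2 -0.76, SE 0.12, edgeR adjusted p = 0.000293). MT1F went from 45.9 and 55.3 CPM to 31.6 and 29.7 (log2 -0.72, SE 0.13, edgeR adjusted p = 0.00121). MT1E went from 52.8 and 51.3 CPM to 34.6 and 37.9 (log2 -0.52, SE 0.12, edgeR adjusted p = 0.0131). For each of these genes, as for MT1H and MT1G, both TETi76 libraries lay below both DMSO libraries. The share of all tested genes that separate in this way was not counted. The calls of MT1E and MT1F did not hold with a single TETi76 library. Without TETi76 replicate 1 the edgeR adjusted p was 0.477 for MT1E and 0.0539 for MT1F, and without TETi76 replicate 2 it was 0.114 and 0.0701, which left 3 members called in each case.

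MT1X stood at 82.8 and 86.4 CPM in DMSO and at 76.1 and 69.5 CPM under TETi76. Its TETi76 libraries were also the lower ones, but the log2 change of -0.22 (SE 0.11) did not pass (edgeR adjusted p = 0.344). The 95% confidence interval of this change, -0.45 to 0.02, lies above that of MT1H (-1.84 to -1.25) and overlaps that of MT1E (-0.77 to -0.27). The difference between members was not tested.

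**Figure D1:**
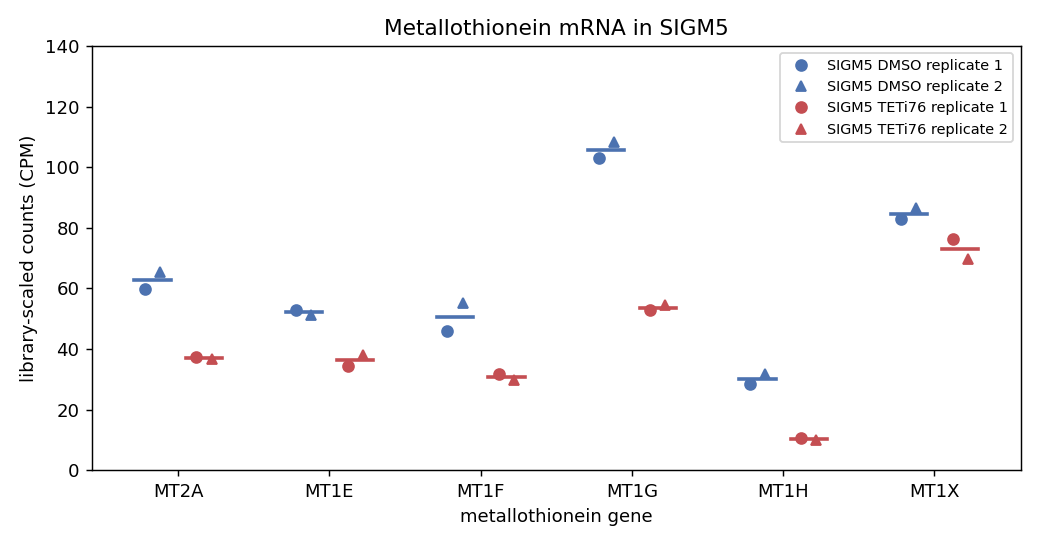
Library-scaled counts (CPM, y axis) of the 6 metallothioneins detected at testable levels in SIGM5 (x axis), with 1 point per library (circle, replicate 1; triangle, replicate 2) and bars at group means. MT1H falls from about 30.2 to 10.4 CPM, while the MT1X groups lie closest together, at means of 84.6 and 72.8 CPM.

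The share of each member in the summed counts was also computed. MT1X supplied 22.2% and 21.7% of the metallothionein counts in the DMSO libraries and 31.3% and 29.1% under TETi76. The share of MT1H was 7.63% and 8.0% in DMSO and 4.36% and 4.24% under TETi76, and that of MT1G was 27.6% and 27.1% against 21.7% and 22.9%. MT2A held a similar share, at 16.1% and 16.4% against 15.4% and 15.4%. Shares were not tested, and the higher share of MT1X went with a lower level of its own.

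**Figure D2:**
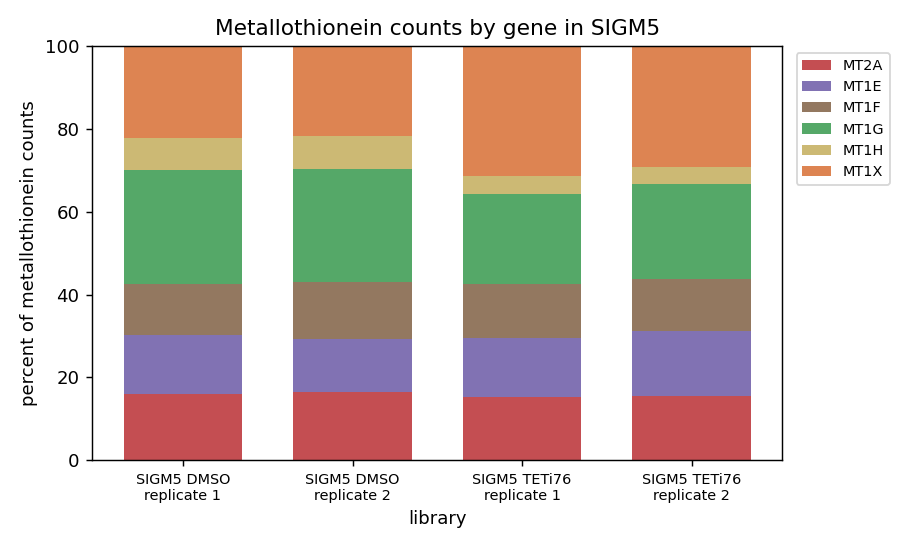
Share of each library's summed metallothionein CPM (y axis, percent) by gene in the 4 SIGM5 libraries (x axis). The MT1X segment is 21.7% to 22.2% in DMSO and 29.1% to 31.3% under TETi76, and the MT1H segment is narrower under TETi76.

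MT1M and MT1A could not be tested in SIGM5. MT1M had 7 and 5 reads in the DMSO libraries and 0 in both TETi76 libraries. With 3 counts taken as the limit that a count of 0 allows, the TETi76 libraries allow a mean of up to 0.128 CPM. The observed DMSO mean of 0.304 CPM was 2.38-fold above that limit. This ratio leaves out the counting error of the 7 and 5 DMSO reads, so it is not a lower bound on the fall. MT1A had 0 reads in all 4 libraries, which allows up to 0.161 CPM in the shallowest. Across all 11340 genes tested in SIGM5, edgeR called 4.13% (2.58% higher and 1.54% lower), against 5 lower and 0 higher of the 6 tested members. The median log2 change was -0.74 over the 6 members and 0.00 over all genes.

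In K562, MT2A and MT1X carried most metallothionein mRNA. On the log2(FPKM + 1) scale, MT2A rose 5.42-fold under TETi76 in K01 and was 4.06-fold higher in the TET2-/- clone K18. MT1A, MT1H and MT1M were listed at 0 in all 10 libraries. MT1E was above 0 in 2 libraries (1.41 and 0.651 FPKM), MT1F in 3 (0.449 to 1.14 FPKM) and MT1G in 2 (1.37 and 1.98 FPKM). The MT1E and MT1F values above 0 all lay in K01 with TETi76, K01 with both agents or K18. Those of MT1G lay in K01 DMSO and in K01 with both agents. All are isolated values, with the partner replicate at 0 each time. MT1G was tested because 2 libraries passed 1 FPKM, and its fitted changes rest on those libraries alone.

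MT2A stood at 11.5 and 10.1 FPKM in K01 DMSO and at 66.4 and 59.4 FPKM under TETi76. No TETi76 library came near a DMSO library. On the log2(FPKM + 1) scale the change was 2.44 (SE 0.17, limma adjusted p = 1.72e-05, n = 2 per group). This scale understates fold changes of genes near 1 FPKM. With TETi76 and ascorbate together MT2A stood at 64.8 and 66.3 FPKM, and with ascorbate alone at 10.6 and 7.97 FPKM. With ascorbate in both arms, TETi76 raised MT2A as well (log2 2.71, SE 0.17, limma adjusted p = 7.91e-06). Epithelial markers, of which 4 of 5 reached 1 FPKM in K562, moved the same way under TETi76 but not in K18. Their sum was 502 and 458 FPKM in K01 DMSO and 412 and 398 in K18. It was 1065 and 1102 with TETi76 and 1158 and 1131 with both agents. The part of these markers in the MT2A result was not tested.

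Ascorbate itself left MT2A without a detected change. Against DMSO the log2 difference was -0.21 (95% confidence interval -0.60 to 0.18, limma adjusted p = 0.688), and the 2 groups overlapped. Added to TETi76, the difference was 0.06 (interval -0.33 to 0.45, limma adjusted p = 0.922). The interaction, which asks whether the TETi76 effect differs with ascorbate, was 0.27 (interval -0.28 to 0.82, limma adjusted p = 0.693). TETi76 with ascorbate against DMSO gave log2 2.50 (SE 0.17, limma adjusted p = 9.93e-06).

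In the TET2-/- clone K18, MT2A read 56.0 and 39.1 FPKM under DMSO, above both K01 DMSO libraries (log2 2.02, SE 0.17, limma adjusted p = 0.000112). The summed erythroid markers were lower in K18, at 4673 and 4471 FPKM against 8374 and 9648 in K01 DMSO, and stood at 7925 and 8278 with TETi76 and 6780 and 7017 with both agents. Their part in the MT2A difference was not tested. This comparison and that of TETi76 in K01 use the same K01 DMSO libraries. Ordered by mean, MT2A was highest with TETi76 and ascorbate at 65.6 ± 1.09 FPKM (SD, n = 2), followed by TETi76 at 62.9 ± 4.94, K18 at 47.6 ± 12, K01 DMSO at 10.8 ± 1.0 and ascorbate at 9.26 ± 1.83. The upper pair of groups overlapped, as did the lower pair. K18 lay below both TETi76 libraries, a difference that was not tested.

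MT1X was lower and far less repeatable. In K01 DMSO it stood at 4.63 and 1.35 FPKM, and under TETi76 at 13.1 and 4.42 FPKM, so the groups overlapped. The log2 change was 1.26 (SE 0.56, limma adjusted p = 0.137). In K18 it stood at 10.3 and 5.85 FPKM, above both K01 DMSO libraries, without passing the test (log2 1.27, SE 0.56, limma adjusted p = 0.164). Replicate 1 exceeded replicate 2 in each of the 5 K562 groups.

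With TETi76 and ascorbate together MT1X reached 16.7 and 9.41 FPKM and was called against DMSO (log2 1.90, SE 0.56, limma adjusted p = 0.0292). That call rests on single libraries: the limma adjusted p was 0.189 without K01 DMSO replicate 2 and 0.146 without replicate 1 of the combined treatment, which leaves MT2A as the 1 member called. Against ascorbate alone (8.0 and 3.57 FPKM) the log2 change was 1.08 (SE 0.56, limma adjusted p = 0.178), and against TETi76 it was 0.63 (SE 0.56, limma adjusted p = 0.67). Ascorbate against DMSO gave 0.82 (SE 0.56, limma adjusted p = 0.617).

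**Figure D3:**
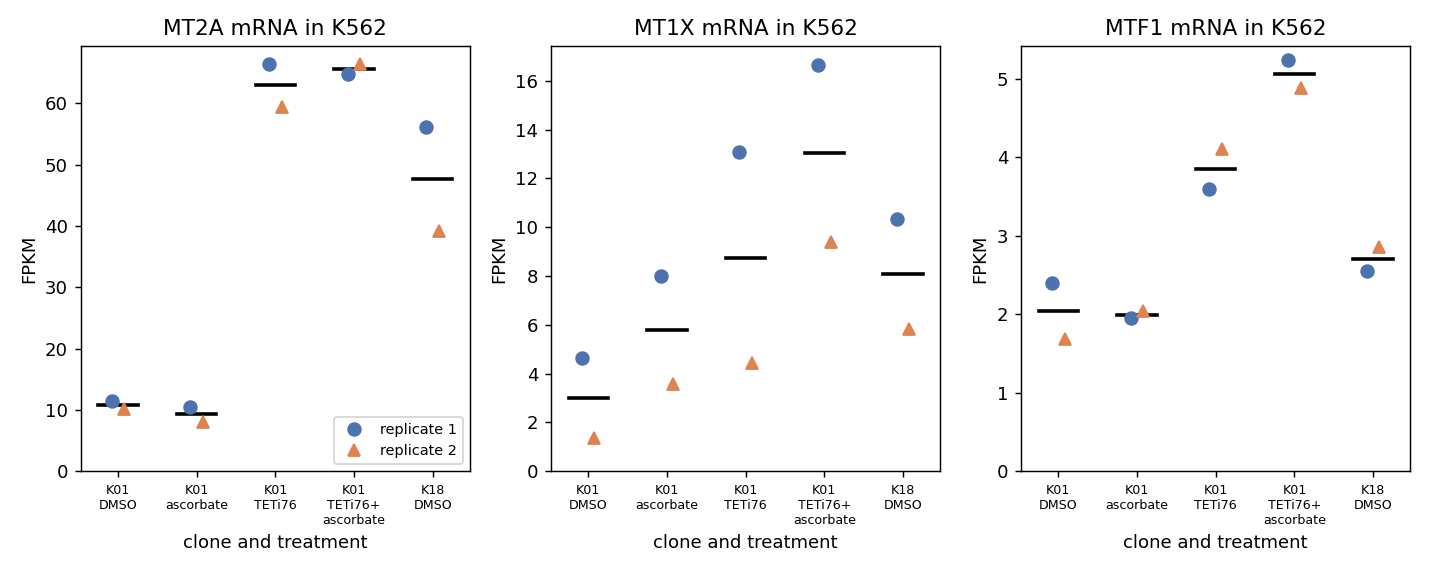
FPKM (y axes, each from 0) of MT2A, MT1X and the metal-sensing factor MTF1 in the 5 K562 groups (x axes), with 1 point per library and black bars at group means. MT2A separates into a low pair of groups near 10 FPKM and 3 high groups above 39, while the MT1X replicates lie far apart.

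Summed over the 8 genes, K562 metallothionein mRNA was 12.8 and 16.1 FPKM in K01 DMSO, 11.5 and 18.6 with ascorbate, 64.4 and 79.5 with TETi76, 76.9 and 84.1 with both agents, and 46.8 and 66.4 in K18. MT2A alone made up 56.9% to 92.3% of each library's sum. Over all 12539 genes tested, limma called 23.3% for TETi76 against DMSO (9.6% higher and 13.7% lower), and 1 of the 3 tested members, MT2A, was called. It called 15% for K18 against K01 (6.84% higher and 8.21% lower), again with MT2A the 1 member of 3. For TETi76 with ascorbate it called 30.7% against ascorbate (12.8% higher and 17.8% lower; 1 member, MT2A) and 30.9% against DMSO (13.3% higher and 17.6% lower; 2 members, MT2A and MT1X). limma called 0 of the 3 members for ascorbate against DMSO, for ascorbate added to TETi76 and for the interaction, where it called 0.479%, 0.734% and 0.63% of all genes. For ascorbate against DMSO that was 0.167% higher and 0.311% lower, for ascorbate added to TETi76 0.247% and 0.486%, and for the interaction 0.279% and 0.351%. At an unadjusted limma p under 0.05 these 3 comparisons had 0 members as well. At that level 2 of 3 members passed for TETi76 against DMSO and 2 for K18 against K01. For TETi76 with ascorbate, 1 passed against ascorbate and 2 against DMSO.

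The TETi76 effect was then compared between the lines, as the difference of the changes fitted within each table. For MT2A, up in K01 and down in SIGM5, the difference was log2 3.20 (SE 0.21, adjusted p = 3.41e-09, from the edgeR and limma fits). For MT1X it was 1.48 (SE 0.57) and did not pass (adjusted p = 0.131 from the same fits), and for MT1G it was 0.35 (SE 0.54, adjusted p = 0.746). Of 9743 genes tested in both lines, 12% differed between them, 4.91% in the direction of MT2A and 7.12% in the other, and MT2A was the 1 member of 3. MT1E, MT1F and MT1H, which fell in SIGM5, were too low in K562 for this comparison.

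**Figure D4:**
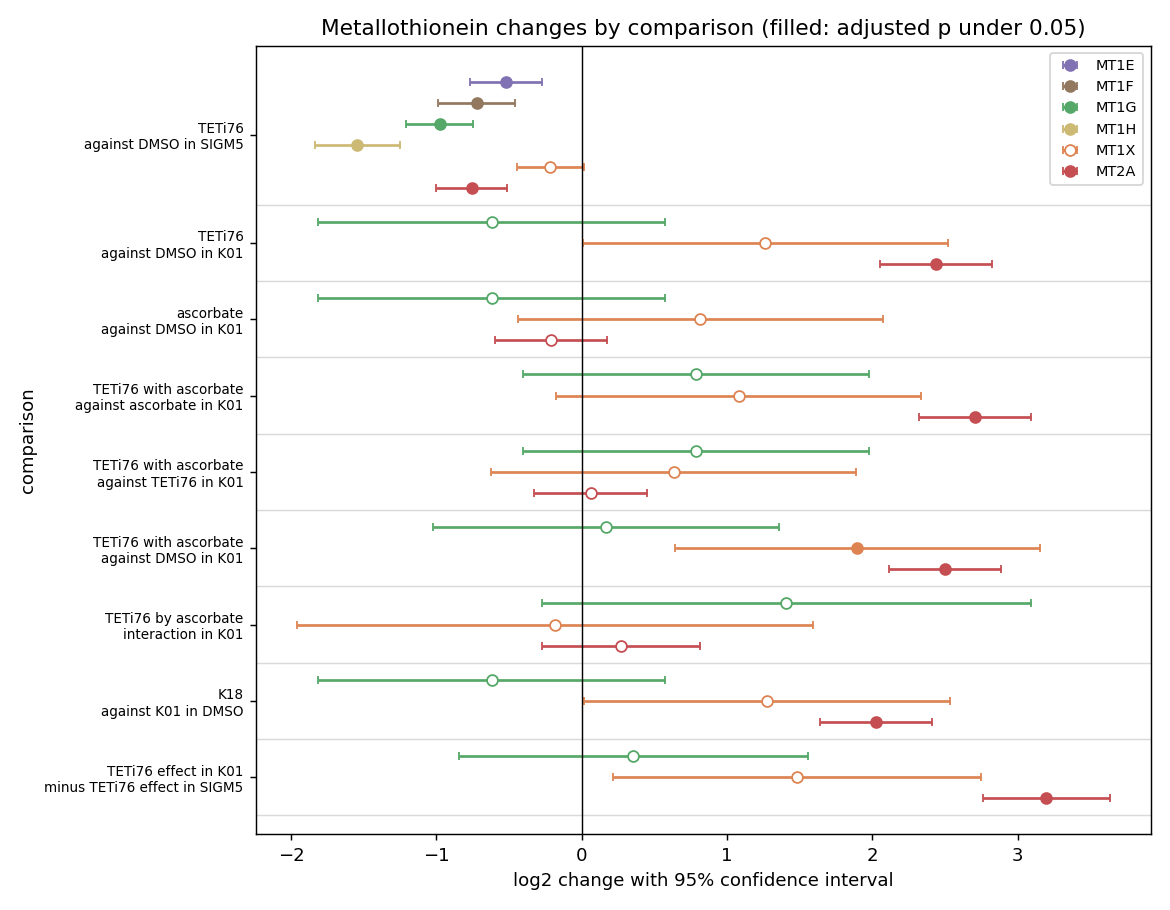
Log2 change with 95% confidence interval (x axis) of each tested metallothionein in the 9 comparisons (y axis); filled points have an adjusted p under 0.05. MT2A lies at -0.76 in SIGM5 and at 2.02 or more in K01 with TETi76 and in K18, whereas the MT1X and MT1G intervals in K562 are several times wider.

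The upstream regulators of the family were measured in the same libraries. MTF1, the zinc sensor that drives metallothionein transcription, rose in K01 under TETi76 from 2.39 and 1.69 to 3.60 and 4.10 FPKM (log2 0.68, SE 0.18, limma adjusted p = 0.0241). With ascorbate in both arms it rose from 1.95 and 2.04 to 5.24 and 4.88 FPKM (log2 1.02, SE 0.18, limma adjusted p = 0.00278). In SIGM5, where most metallothioneins fell, MTF1 stood at 54.1 and 56.6 CPM in DMSO and at 67.9 and 69.7 under TETi76, the higher group, but did not pass (log2 0.31, SE 0.11, edgeR adjusted p = 0.131). In K18 it was at 2.56 and 2.86 FPKM, and the difference from K01 of log2 0.29 did not pass (limma adjusted p = 0.322).

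SLC30A1, the zinc exporter that MTF1 is known to induce together with metallothioneins, was not called under TETi76. It had a log2 change of 0.11 in K01 (SE 0.21, limma adjusted p = 0.755) and 0.06 in SIGM5 (SE 0.12, edgeR adjusted p = 0.877), and in K18 it stood at log2 -0.04 (SE 0.21, limma adjusted p = 0.928). NR3C1, the glucocorticoid receptor, was at log2 -0.11 in K01 (limma adjusted p = 0.612) and 0.20 in SIGM5 (edgeR adjusted p = 0.397).

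Among zinc transporters, edgeR called 0 of 6 zinc exporters and 0 of 10 importers in SIGM5, with 2 and 4 at an unadjusted p under 0.05. In K01 limma called 2 of 7 exporters lower, SLC30A10 (log2 -1.51, SE 0.29) and SLC30A9 (log2 -0.45, SE 0.11), under TETi76, beside 13.7% lower among all genes. SLC30A10 mainly exports manganese. Among 11 importers, SLC39A3 fell from 107 ± 4.03 to 38.3 ± 2.53 FPKM (log2 -1.47, SE 0.07, limma adjusted p = 2.57e-06) and SLC39A14 fell by 1.12 (SE 0.15), while SLC39A6 rose by 0.98 (SE 0.18). These 3 called importers of 11, like the exporters, stand beside 23.3% called among all genes, so the counts do not set zinc transporters apart. The TETi76 effect on SLC39A3 and SLC39A14 differed between the lines, by log2 -1.51 and -1.39 (adjusted p = 1.65e-09 and 3.65e-05, from the edgeR and limma fits). Copper handling genes had 2 of 12 members higher in K01, COX17 and SOD1 (log2 0.57 and 0.35), beside 9.6% higher and 23.3% called among all genes, and edgeR called 0 of 12 in SIGM5, with 1 at an unadjusted p under 0.05. The copper exporter ATP7A was lower in K18 (log2 -1.10, SE 0.14, limma adjusted p = 0.000975). It was the 1 copper handling gene of 12 called there, beside 15% called and 8.21% lower among all genes.

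Other gene sets known to share inducers with metallothioneins were counted beside them. Of 18 interferon-induced genes tested in SIGM5, 10 fell, beside 1.54% lower among all genes. Among these 10 were IFI44L, IFIT1 and IFIT3 (log2 -3.15, -2.86 and -1.96). The median log2 change of the 18 was -1.32, against 0.00 over all genes. In K01, 2 of 8 rose, IRF7 and ISG15 (log2 1.09 and 0.73), and in K18, 2 of 8 were higher, USP18 and ISG15 (log2 1.19 and 0.55). Among all genes 9.6% were higher in K01 and 6.84% in K18, and counts this small say little about the list. Between the lines, the TETi76 effect was higher in K01 for 4 of 7 interferon-induced genes and lower for 0. Among all genes 4.91% were higher and 7.12% lower in that comparison. Of 11 oxidative and metal stress genes in SIGM5, 7 rose (median log2 0.48), beside 2.58% higher among all genes. The 7 include NQO1 (log2 2.94, SE 0.14), a quinone reductase. In K01, 11 of 12 rose and 1 fell (median log2 1.13, against -0.01 over all genes), beside 9.6% higher and 13.7% lower among all genes. OSGIN1 stood at log2 3.68 (SE 0.17) there. The chaperone HSPA1A, whose reads cannot be fully separated from HSPA1B, was at 2.49 (SE 0.12). In K18, 5 of 12 were higher and 2 lower, beside 6.84% and 8.21% among all genes. Glucocorticoid-induced genes had 1 of 10 members higher in SIGM5, SGK1 (log2 1.67), beside 2.58% higher among all genes. They had 2 higher and 4 lower of 9 in K01, beside 9.6% and 13.7% among all genes. There SGK1 again rose (log2 2.05, SE 0.20) and TSC22D3 fell (log2 -1.06, SE 0.33). The K18 comparison had 1 higher and 3 lower of 9, beside 6.84% and 8.21% among all genes. Whether any of these sets bears on the metallothioneins was not tested.

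The patterns most like the family were sought over the 10 K562 libraries, as the Pearson correlation of each gene with the mean log2(FPKM + 1) of MT1G, MT1X and MT2A. Among genes with a mean of at least 10 FPKM in their highest group, the closest were ZNF326 (r = 0.95), RNF4 (r = 0.94), LOC101926963 (r = 0.94), ICAM1 (r = 0.94) and LINC00506 (r = 0.93), and over the 5 group means their r was 0.95 to 0.97. These libraries share treatment groups and the search ran over many genes, so the values are a description. MT1X and MT2A correlated with each other at r = 0.69, whereas MT1G correlated with MT1X at r = -0.03 and with MT2A at r = -0.00047, so the profile mixes members that do not share a pattern. In SIGM5 TETi76 raised ICAM1, an adhesion molecule, by log2 2.04 (SE 0.26, edgeR adjusted p = 3.03e-05), while ZNF326 stood at -0.06 and RNF4 at 0.03, neither of them called (edgeR adjusted p = 0.871 and 0.95).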

How the data were processed

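Polyadenylated RNA from 14 libraries was analysed. Per the submitters' processing notes, the build was hg19 and the tools were STAR, edgeR 3.24.3 and limma 3.38.3; their roles, the quantifier and its treatment of shared reads are not given in the sources used here. The deposited SIGM5 values are raw counts; the deposited K562 values are FPKM (not separable from RPKM) despite the table's name. All 14 single-sample tables equalled their columns. In K562, 26 entries named by a number (at most 0.0657% of a library's FPKM) and 2265 short-RNA entries were left out.

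SIGM5 counts were tested with edgeR 4.0.16 (TMM, filterByExpr, robust quasi-likelihood), K562 with limma 3.58.1 (trend, robust; 5 groups, 10 libraries) on log2(FPKM + 1) for genes at 1 FPKM in 2 libraries. Differences between lines used both fits with Satterthwaite degrees of freedom. All tests are two-sided; p-values were adjusted by Benjamini-Hochberg over all genes, with a threshold of 0.05. Scripts were tested on simulated data. Members and lists were chosen with earlier results of these data known. Named genes were the 8 members, MTF1, SLC30A1, NR3C1, up to 3 called genes per list and comparison with the largest change, and the 5 most alike genes with a mean of at least 10 FPKM in their highest group; 1 gene is not reported here. Alternatives covered DESeq2 1.42.0, scaling, filters, pseudocounts, single libraries and replicate numbers. Sequences came from RefSeq and GENCODE tables of GRCh38, used without transfer of coordinates to hg19.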

Additional observations from a re-analysis of the deposited data

Results flagged for a closer look

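The TETi76 effect on MT2A differed between the lines by log2 3.20 (adjusted p = 3.41e-09, from the edgeR and limma fits), with both K01 TETi76 libraries above and both SIGM5 TETi76 libraries below their DMSO controls. The size of this difference spans 2 tables in different units, each fitted on its own. It stayed between 3.11 and 3.29 over 11 alternatives.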

How the results depend on the processing

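MT2A kept its direction and its call in SIGM5, in K01 under TETi76 with and without ascorbate, and in K18 under every alternative run. Of 429 member values under these alternatives, 408 kept their direction and side of the threshold, 7 lost the call, 5 gained it and 9 changed sign. Leaving out a K562 library from outside a comparison left the fitted change as it was, so such values could not change sign. The values also include members that were not called to begin with, so these counts are a weak measure of stability. Same-numbered libraries did not deviate together: r was -0.24 between the SIGM5 groups and -0.02 to 0.05 over 10 pairs of K562 groups. The replicate block called 5 SIGM5 members, as without it, and added MT1X, giving 2 members for TETi76 in K01, 2 for TETi76 with ascorbate against ascorbate, 2 for K18 and 2 for the difference between lines. A crossed pairing in SIGM5, chosen after the data were seen, called 1291 genes against 468, and 5 members. With no filter, 1 member was called for TETi76 with ascorbate against DMSO. Leaving out single libraries gave 3 to 5 members in SIGM5, 1 to 2 for TETi76 with ascorbate against ascorbate, where MT1G passed without replicate 2 of the combined treatment, and 1 to 2 against DMSO. It also moved these K562 values across 0: MT1X from -0.87 to 0.51 in the interaction and from -0.055 to 1.32 for ascorbate added to TETi76, MT2A from -0.018 to 0.14 in the latter, and MT1G from -0.46 to 0.95 against DMSO with both agents and from -0.27 to 0.39 between lines, where a pseudocount of 0.1 gave -0.96. The cause was not tested. Counts over all genes moved too: single libraries gave 110 to 1206 in SIGM5, 1672 to 3067 for TETi76 in K01, 720 to 2026 for K18, 2575 to 3873 for TETi76 with ascorbate against DMSO and 522 to 1486 between lines, and no filter gave 738 in SIGM5. The comparisons of ascorbate alone, ascorbate added to TETi76 and the interaction had 60, 92 and 79 calls, 0, 0 and 26 when only their own groups were fitted, and 0 to 54, 2 to 62 and 0 to 71 without single libraries. The interaction had 42 without a filter and 46 with the block.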

Other observations

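MT4, a family member known from squamous epithelium, was listed in K562 at 8.94 and 2.23 FPKM in K18 and at 4.26 FPKM in K01 DMSO replicate 2, and at 0 in the other 7 libraries. In SIGM5 MT4, MT3 and MT1B had 0 reads in all 4 libraries. The pseudogene MT1DP had 1 read in TETi76 replicate 1.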
